A study of Mus musculus with 41 samples.

Results

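The genes described here are 8 abundant or well-known structured noncoding RNAs of the mouse: Gm42418, Gm26917, Bc1, Snord13, Rn7sk, Rmrp, Rpph1 and Terc. They were taken by name, in 9 of the 55536 gene rows of each count table, because Rmrp has 2 rows. They had been chosen by their measured shares of the counts and by their differences between genotypes and between vectors, so those differences are given below as a description, with no p-value and nothing read from how many passed a threshold. RNA-seq was made from testis cells of C57BL/6 mice carrying an OCT4-eGFP reporter and sorted for eGFP, with 4 wild-type (WT) libraries and 4 libraries labelled Rhox10-null. Each of these pooled the testes of 3 animals, and their age is not given in the sources used here. iSLAM-seq was made from germline stem cells grown from C57BL/6 testes at P0-P1, in which an shRNA had knocked down the cells' own Rhox10 in every library. These cells carried either a Rhox10-ERT2-mCherry fusion that answers to 4-hydroxytamoxifen (Rhox10) or the ERT2-mCherry vector alone (Ctrl), with 2 libraries per vector at each of 0, 0.5, 1, 2, 4 and 8 h. CUT&Tag, with 3 libraries per group, located an HA-tagged RHOX10 in the same kind of cell, also after knockdown of the endogenous gene.

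RHOX10 is a homeobox transcription factor encoded on the X chromosome that acts in early spermatogonia. Structured noncoding RNAs work through their fold and their protein partners and are not translated. Ribosomal RNA is cut from a long RNA polymerase I transcript in which an external spacer is followed by 18S and an internal spacer. RNA polymerase III makes 7SK (Rn7sk), which holds the elongation factor P-TEFb inactive; the RNA of RNase P (Rpph1), which trims tRNA 5′ ends; the RNA of RNase MRP (Rmrp), which acts in ribosomal RNA processing; and Bc1, a rodent RNA of neurons and germ cells that binds translation factors. Snord13 (U13) pairs with 18S and guides its acetylation by Nat10 with Thumpd1, and Terc is the template of telomerase.

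The sequences below come from GRCm38 and are written 5′ to 3′ on the strand of the gene. The annotation of the 9 rows is GENCODE M21. Gm26917 (ENSMUSG00000097971, lincRNA, chr17:39843013-39846341, plus strand) and Gm42418 (ENSMUSG00000098178, lincRNA, chr17:39846958-39848788, plus strand) lie on either side of the start of Rn18s-rs5, an 18S-related sequence in RefSeq (chr17:39846354-39848202). Gm26917 ends 12 bases before Rn18s-rs5 begins and holds 0 of its bases. Gm42418 begins at base 605 of Rn18s-rs5. It shares 1245 bases with it, 68% of its own length, and runs 586 bases past its end. The lines below show both borders, with the bases of Rn18s-rs5 in capitals.

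Gm26917 end and Rn18s-rs5 start (chr17:39846282-39846393, plus strand): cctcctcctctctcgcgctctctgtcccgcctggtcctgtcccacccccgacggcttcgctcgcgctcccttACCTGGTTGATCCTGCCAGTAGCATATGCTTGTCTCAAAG
Rn18s-rs5 end inside Gm42418 (chr17:39848163-39848242, plus strand): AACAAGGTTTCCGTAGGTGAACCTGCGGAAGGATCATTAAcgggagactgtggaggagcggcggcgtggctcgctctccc

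Reads from ribosomal RNA genes elsewhere in the genome that match these rows cannot be told apart from reads of the chromosome 17 copy. On the opposite strand CT010467.1, annotated as rRNA, covers all 1831 bases of Gm42418, and AY036118 covers 923. The strand setting of the counting is not given in the sources used here.

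Bc1 (ENSMUSG00000115783, lincRNA, 168 bases) is printed whole, since it differed between groups and is short. Capitals mark its longest run of A. Snord13 (ENSMUSG00000088252) is annotated as a snoRNA of 104 bases.

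Bc1 (chr7:144914470-144914637, plus strand): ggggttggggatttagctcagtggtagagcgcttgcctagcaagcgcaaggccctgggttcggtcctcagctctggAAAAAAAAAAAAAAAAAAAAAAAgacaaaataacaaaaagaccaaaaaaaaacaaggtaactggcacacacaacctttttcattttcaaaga

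The run of A in Bc1 is 23 bases long, against 2 to 6 bases for the longest run in the other 8 rows. The nearest neighbours of Bc1 are Gm39119, 4385 bases away, and LTO1, whose gene begins 463 bases past its end on the same strand.

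Rn7sk (ENSMUSG00000065037, misc_RNA, chr9:78175303-78175633, minus strand) and Terc (ENSMUSG00000064796, misc_RNA, chr3:96414437-96414859, minus strand) are shown by their 5′ ends. Capitals mark GATC in Rn7sk, whose 5′ hairpin binds Hexim proteins, and CTAACCC in Terc, the letters of the telomere template.

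Rn7sk first 110 bases (chr9:78175524-78175633, minus strand): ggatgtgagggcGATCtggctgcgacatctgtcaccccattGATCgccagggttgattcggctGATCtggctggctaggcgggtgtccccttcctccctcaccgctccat
Terc first 100 bases (chr3:96414760-96414859, minus strand): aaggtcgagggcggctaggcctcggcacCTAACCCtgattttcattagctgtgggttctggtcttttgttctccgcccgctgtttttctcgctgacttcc

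Rmrp has 2 rows on chromosome 4, as ENSMUSG00000115420 (lincRNA, 281 bases) and ENSMUSG00000088088 (ribozyme, 271 bases). The shorter row lies wholly inside the longer one. The 10 bases that belong to the longer row alone are in capitals, and they were all that the annotation offers to tell the rows apart.

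Rmrp longer row (chr4:43492783-43493063, minus strand): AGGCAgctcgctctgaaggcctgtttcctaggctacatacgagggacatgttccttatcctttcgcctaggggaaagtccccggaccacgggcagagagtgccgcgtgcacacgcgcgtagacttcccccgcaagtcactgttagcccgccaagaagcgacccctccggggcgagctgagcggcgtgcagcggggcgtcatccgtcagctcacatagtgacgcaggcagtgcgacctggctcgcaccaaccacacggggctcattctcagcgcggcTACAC

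Ccdc107 overlaps 164 bases of the longer Rmrp row on the opposite strand. Rpph1 (ENSMUSG00000092837, ribozyme, chr14:50807449-50807767, minus strand) shares 284 of its 319 bases with the gene span of Ccnb1ip1 on the same strand, and Parp2 begins 74 bases away on the other strand. Values of Rpph1 and Rmrp therefore depend on how the authors assigned reads in shared sequence, which is not given in the sources used here.

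The RNA-seq libraries held 6602089 to 8278887 counts and the iSLAM-seq libraries 9419615 to 12645845. Rhox10 itself had 3 to 10 counts in the WT libraries and 4 to 11 in those labelled null, so its level does not check the genotype labels. It had 2 to 27 counts in Ctrl and 353 to 540 in Rhox10 iSLAM-seq libraries. The 2 Ctrl libraries at 0.5 h correlated at 0.943 over 11939 genes, against 0.988 to 0.993 in the other 11 pairs. Germ cell marker genes summed to 248 to 260.2 CPM (counts of a row scaled to a fixed library total) in WT and 145 to 160 in null libraries, with none of 10 at 0. Markers of Sertoli, Leydig, stromal, endothelial and blood cells summed to 328 to 364 in WT and 603 to 651 in null libraries, with none of 13 at 0. This sum mixes cell types that moved unequally. Hbb-bs had 1 to 2 counts in WT and 120 to 135 in null libraries, and Hba-a1 3 to 8 and 146 to 191. Sox9 had 221 to 285 and 269 to 305, and Insl3 2 to 6 and 2 to 7. Amh (836 to 1060 and 1378 to 1639) and Col1a1 (783 to 1041 and 1430 to 1765) had the most counts. In iSLAM-seq the sums for germ cell markers were 2066 to 2779 (Ctrl) and 2082 to 2363 (Rhox10). For the other cells they were 753 to 955 and 736 to 1183, with Amh and Insl3 at 0 in all 24 libraries. Col1a1 (4218 to 9778 counts) and Sox9 (1632 to 6531) held most of the sum for the other cells. Hbb-bs had 0 to 2 counts and Cyp11a1 0 to 17. The part of these markers in the differences below was not tested, and in pools of cells fewer cells of a type cannot be told apart from less RNA per cell.

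The 8 genes had different shares in the 2 assays, which differ in both kit and cells. How reads were counted in iSLAM-seq is not given either, so the parts of kit, cells and counting cannot be told apart. In RNA-seq the 9 rows took 62.6% to 63.9% of all counts in WT and 56.4% to 58.1% in null libraries, nearly all of it in Gm42418 and Gm26917. Protein-coding rows took 22.3% to 27.2%. In iSLAM-seq protein-coding rows took 93.8% to 94.4%, and the 9 rows together 0.0809% to 0.133%. Gm42418 was the row with the highest mean share in RNA-seq and had 0 counts in all 24 iSLAM-seq libraries. That allows at most 3.19e-05% of a library (3 counts, counting error only), if no reads were removed in mapping or counting. The mitochondrial rRNA rows were also at 0 in all 24, against 4.567% to 7.075% of the RNA-seq counts. Whether such reads were removed was not tested. Snord13 went the other way, with 0 to 3 counts in the 8 RNA-seq libraries and 697 to 4410 in the 24 iSLAM-seq libraries. It was the most abundant row with a Snord symbol in iSLAM-seq, ahead of Snord89 (131 to 451 counts). In RNA-seq the highest such row was Snord17, with 49 to 72 counts.

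Per kilobase of row length, RNA-seq counts could be set side by side. For Rpph1 they depend on how reads shared with Ccnb1ip1 were assigned, so the order describes counts and not amounts of RNA. In WT libraries Gm42418 stood at 320000 ± 3172 CPM per kb (SD, n = 4). Gm26917 (12210 ± 573) and Rn7sk (11750 ± 631) followed, and their ranges overlapped. Bc1 came next at 259 ± 22.2, then Rpph1 at 139 ± 8.94, and these 2 did not overlap. Terc (6.33 ± 1.92) and Snord13 (2.24 ± 1.19) were lowest among the rows with counts, and both rested on at most 29 counts per library. In null libraries Rpph1 (165 ± 19.2) stood above Bc1 (41.0 ± 12.1), so the order of these 2 was the reverse of that in WT. Other structured RNAs in the same libraries included Scarna2, with 562 to 937 counts, Rnu2-10, with 1012 to 2170, and Snora73b, with 105 to 180. The Y RNAs Rny3 and Rny1 had at most 8 counts.

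**Figure D1:**
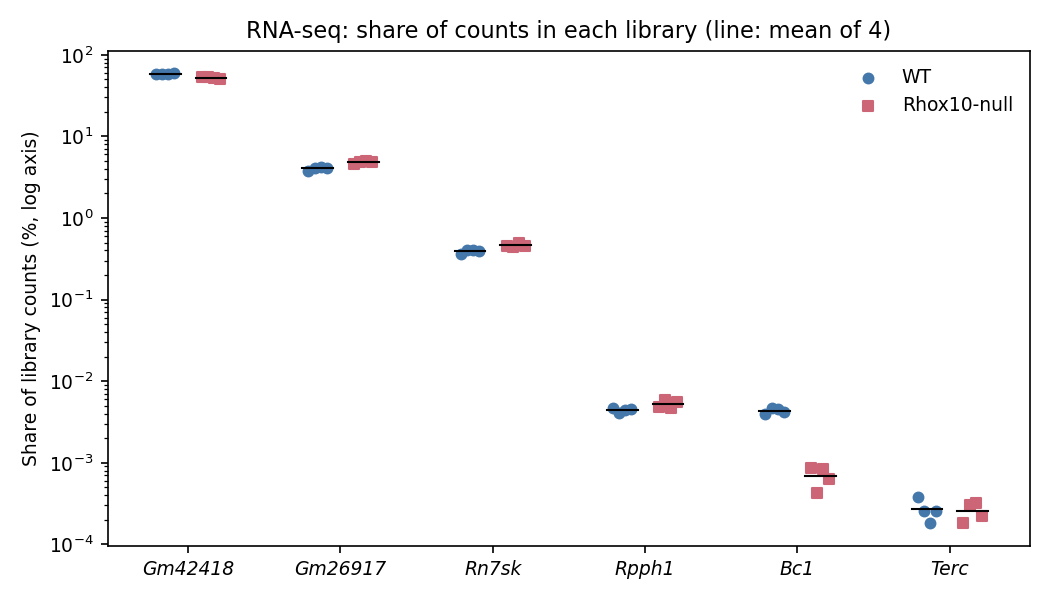
Share of each RNA-seq library's counts, in percent on a log axis, for the 6 members with at least 12 counts in every library. Points are libraries (4 WT, 4 Rhox10-null) and lines are group means. Bc1 sits far lower in all null libraries, Gm42418 slightly lower, and Gm26917 and Rn7sk slightly higher.

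Gm42418 took 58.7%, 58.0%, 58.3% and 59.4% of the counts in WT replicates 1 to 4, and 52.7%, 52.7%, 52.1% and 51.0% in the null libraries. The null libraries were all below the WT ones, and the means were 58.6 ± 0.581% and 52.1 ± 0.812% (SD, n = 4). With TMM scaling, which balances the libraries on the bulk of genes, the log2 difference of null minus WT was -0.51 ± 0.036 (SE). Gm26917, the row just before the 18S sequence, took 3.78%, 4.15%, 4.20% and 4.12% in WT and 4.60%, 4.92%, 4.96% and 4.92% in null libraries. Its raw share was thus higher in every null library, while its TMM-scaled difference was -0.09 ± 0.041. Within a library, where no scaling enters, Gm42418 had 13.9 to 15.5 counts for each Gm26917 count in WT and 10.4 to 11.4 in null libraries, ranges that did not overlap.

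Bc1 showed the largest difference of the 6 members above the filter on low counts in RNA-seq. It had 300, 351, 301 and 348 counts in WT replicates 1 to 4 and 70, 28, 62 and 43 in the null libraries. As shares these were 39.1 to 47.5 CPM in WT and 4.22 to 8.53 in null libraries, with a gap of more than the whole spread of either group. The mean share was 6.32-fold lower in null libraries, and the TMM-scaled log2 difference was -2.97 ± 0.10 (SE). For each 7SK count there were 0.0108 to 0.0118 Bc1 counts in WT and 0.000945 to 0.00189 in null libraries.

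The other polymerase III members did not share this pattern. Rn7sk had 27531, 29821, 26593 and 32320 counts in WT and 36964, 29634, 36729 and 30624 in null libraries. Its shares were 0.359% to 0.403% and 0.447% to 0.498%, higher in every null library, with a TMM-scaled log2 difference of -0.09 ± 0.045. Rpph1 had 360, 298, 296 and 376 counts in WT and 393, 393, 345 and 377 in null libraries. Its shares overlapped (40.3 to 46.9 and 46.7 to 59.2 CPM), and its scaled difference was -0.11 ± 0.065. The number of Rpph1 counts for each 7SK count overlapped too, at 0.00999 to 0.0131 in WT and 0.00939 to 0.0133 in null libraries. Both Rmrp rows had 0 counts in all 8 libraries. The rows share all but 10 bases of the longer one, and whether reads that match both were counted is not given. A count of 0 therefore sets no limit on the level of Rmrp.

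Terc had 29, 19, 12 and 21 counts in WT and 15, 20, 24 and 15 in null libraries, overlapping ranges with a scaled log2 difference of -0.42 ± 0.25. Snord13 had 3, 2, 1 and 1 counts in WT and 3, 0, 1 and 0 in null libraries. For Terc no difference was detected, which at these counts does not show that there was none. Snord13 was under the filter on low counts and was not tested.

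Among all 13538 genes tested in RNA-seq, 37.5% passed an adjusted p of 0.05. Of the 8 members, 6 were above the filter on low counts, and Gm42418 and Bc1 were past that threshold. With a replicate block, and without WT replicate 1, Gm26917 and Rn7sk were past it too, as was Gm26917 without null replicate 4 and Rn7sk without null replicate 3. Snord13 and Rmrp were under the filter. Raw shares of all null libraries lay above all WT libraries for 44.6% of the genes and below them for 3.42%. Gm26917 and Rn7sk belong to the first set and Gm42418 and Bc1 to the second. The members were chosen with these contrasts in view, so nothing is read from the counts.

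Scaling decides the sign of most of these differences. Using library totals in place of TMM moved the median of all genes by 0.35 on the log2 scale. Gm26917, Rn7sk and Rpph1 then came out higher in null libraries, by 0.26, 0.25 and 0.24. Scaling to 3 germ cell genes (Ddx4, Dazl and Mael), chosen after seeing the data, moved the median by 0.91. It left Bc1 alone of the 6 lower in null libraries (-2.06). Of all 13538 genes, 12338 then passed as higher and 64 as lower, so a change of sign under this scaling is not particular to the members. Gm42418 then stood at 0.41. Bc1 ran from -3.10 to -2.06 over every alternative and every left-out library.

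**Figure D2:**
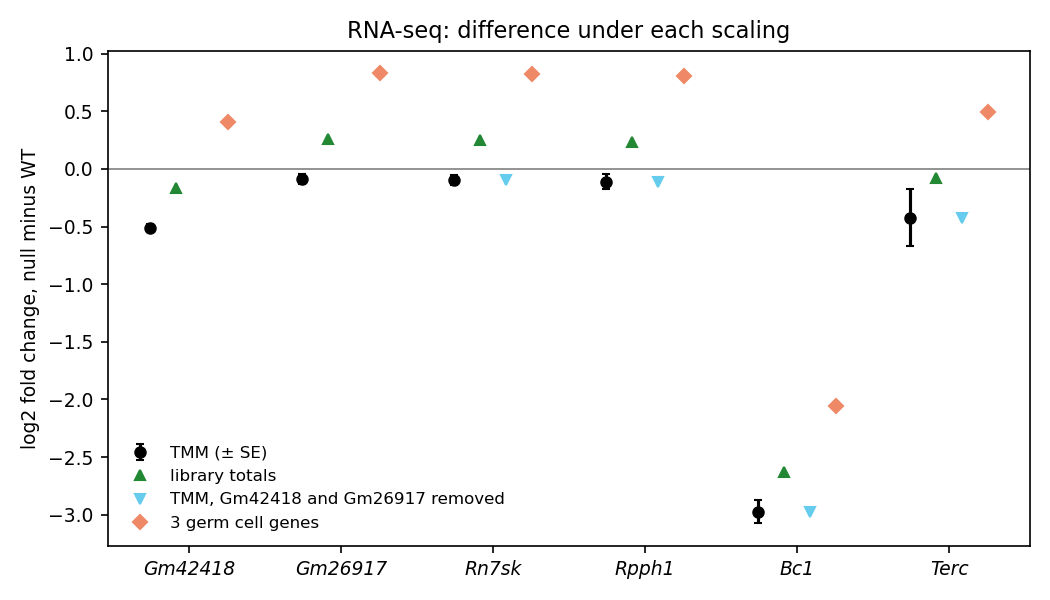
RNA-seq log2 fold change of null minus WT for 6 members under 4 scalings. Bars on the TMM points are standard errors from edgeR, and no point is drawn for Gm42418 and Gm26917 where they were removed. Bc1 stays below -2 throughout, while the other members lie within 1 unit of 0 and most change sign.

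Rows related to ribosomal RNA moved in both directions with TMM scaling. Of the 8 other rows of this kind in the tables, 7 were tested. At the threshold of 0.05 on edgeR's adjusted p, 4 fell and 3 rose, where 37.5% of all genes passed. Lars2, a mitochondrial leucyl-tRNA synthetase gene whose row took many counts here, fell by 0.49 on the log2 scale (SE 0.039), and Gm15564 fell by 0.75 (SE 0.064). CT010467.1, which lies opposite Gm42418, stood at -0.65. The mitochondrial 16S rRNA mt-Rnr2 rose by 0.17 (SE 0.042) and Gm26870 by 0.92 (SE 0.24). The 7SL RNAs Rn7s1 and Rn7s2, the scaffold of the signal recognition particle, fell by 0.46 and 0.45 (SE 0.044 each), and the nuclear RNAs Malat1 and Neat1 rose by 0.49 and 0.52. With scaling to the 3 germ cell genes all 7 rRNA-related rows, and all 6 tested rows of the list that holds 7SL, Malat1 and Neat1, came out higher in null libraries.

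Genes whose levels followed each member most closely over the 8 RNA-seq libraries were ranked by Pearson's r among 8320 genes, as a description in which the libraries share the split by genotype. Gm42418 was followed by Usp26, Dazl and Ddx4 (r = 0.997 each), the last 2 being germ cell markers. Among the 3 genes most like Bc1 were Trim71 (0.993) and Pdap1 (0.991). Rn7sk was followed by Gm26315 and Gm24447 (0.950 each).

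In iSLAM-seq, Snord13 was lower with the Rhox10 vector at every time, including 0 h, before induction. Its shares at 0 h were 299 and 268 CPM in the 2 Ctrl libraries and 119 and 101 in the 2 Rhox10 libraries. At 0.5 h they were 286 and 452 against 155 and 160, and at 1 h 259 and 250 against 110 and 113. At 2 h they were 277 and 282 against 98.7 and 96.9. At 4 h they were 261 and 265 against 93.7 and 88.8, and at 8 h 216 and 219 against 74.0 and 82.9. All 12 Rhox10 libraries lay below all 12 Ctrl libraries, a separation that was not counted over all genes. Both Rhox10 libraries were below both Ctrl libraries at every time for 5.37% of the genes tested. The mean of the scaled log2 differences of Snord13 from 0.5 to 8 h was -1.39 ± 0.059 (SE), close to the -1.35 ± 0.13 at 0 h.

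Snord13 also changed with time within each vector. The choice of genes did not name this comparison, but earlier results of these data were known when it was made. In edgeR's quasi-likelihood F-test over 5 later times against 0 h, the adjusted p was 0.0104 in Ctrl and 1.19e-04 in Rhox10. It stood highest at 0.5 h, by 0.39 ± 0.13 (SE) over 0 h in Ctrl and 0.51 ± 0.13 in Rhox10. In Ctrl the second library at 0.5 h (452) carried this, as the first (286) lay between the values at 0 h. It was lowest at 8 h, by -0.35 ± 0.13 and -0.52 ± 0.13. Every single left-out library kept both adjusted p values under 0.05. The share of all genes past the threshold was 5.74% in Ctrl and 9.44% in Rhox10.

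Rn7sk rose with time in both vectors and was higher with the Rhox10 vector throughout. Its shares at 0 h were 10.7 and 12.8 CPM in Ctrl and 23.1 and 23.5 in Rhox10. At 0.5 h they were 12.7 and 17.2 against 22.6 and 24.7, and at 1 h 16.7 and 15.4 against 26.4 and 27.0. At 2 h they were 22.2 and 17.4 against 38.2 and 35.0. At 4 h they were 27.7 and 25.6 against 54.5 and 48.6, and at 8 h 24.3 and 22.8 against 45.3 and 50.2. Both Rhox10 libraries were above both Ctrl libraries at each of the 6 times, as for 6.12% of the genes tested. The scaled log2 difference of Rn7sk was 1.00 ± 0.16 at 0 h and 0.85 ± 0.069 as the mean of the later times.

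The rise of Rn7sk reached 1.21 ± 0.16 (SE) on the log2 scale at 4 h and 1.04 ± 0.16 at 8 h in Ctrl, with an adjusted p of 1.59e-04. In Rhox10 it reached 1.16 ± 0.15 and 1.00 ± 0.15, with an adjusted p of 3.00e-06. Both calls held in all 24 fits that left out a library. The rise was thus measured in cells with the empty vector as well.

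Gm26917, the most abundant member in iSLAM-seq, had 552 to 842 CPM in Ctrl and 637 to 942 in Rhox10. At 0 h the Ctrl libraries had 563 and 552 and the Rhox10 libraries 668 and 637. At 2 h they had 745 and 693 against 920.3 and 942. At 0.5 h the second Ctrl library (842) lay among the Rhox10 values (848 and 803), and at the other 5 times both Rhox10 libraries lay above both Ctrl libraries. The averaged log2 difference was 0.35 ± 0.041, and that at 0 h was 0.24 ± 0.091. With time it changed in Ctrl (adjusted p 0.0154) and in Rhox10 (adjusted p 0.00468), standing 0.38 ± 0.091 and 0.54 ± 0.091 above 0 h at 2 h. The Ctrl call was lost without the first or the second Ctrl library at 0 h (0.0617 and 0.0721). The Rhox10 call was lost without the second Rhox10 library at 0 h (0.0749), and with scaling to the germ cell genes (0.617).

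**Figure D3:**
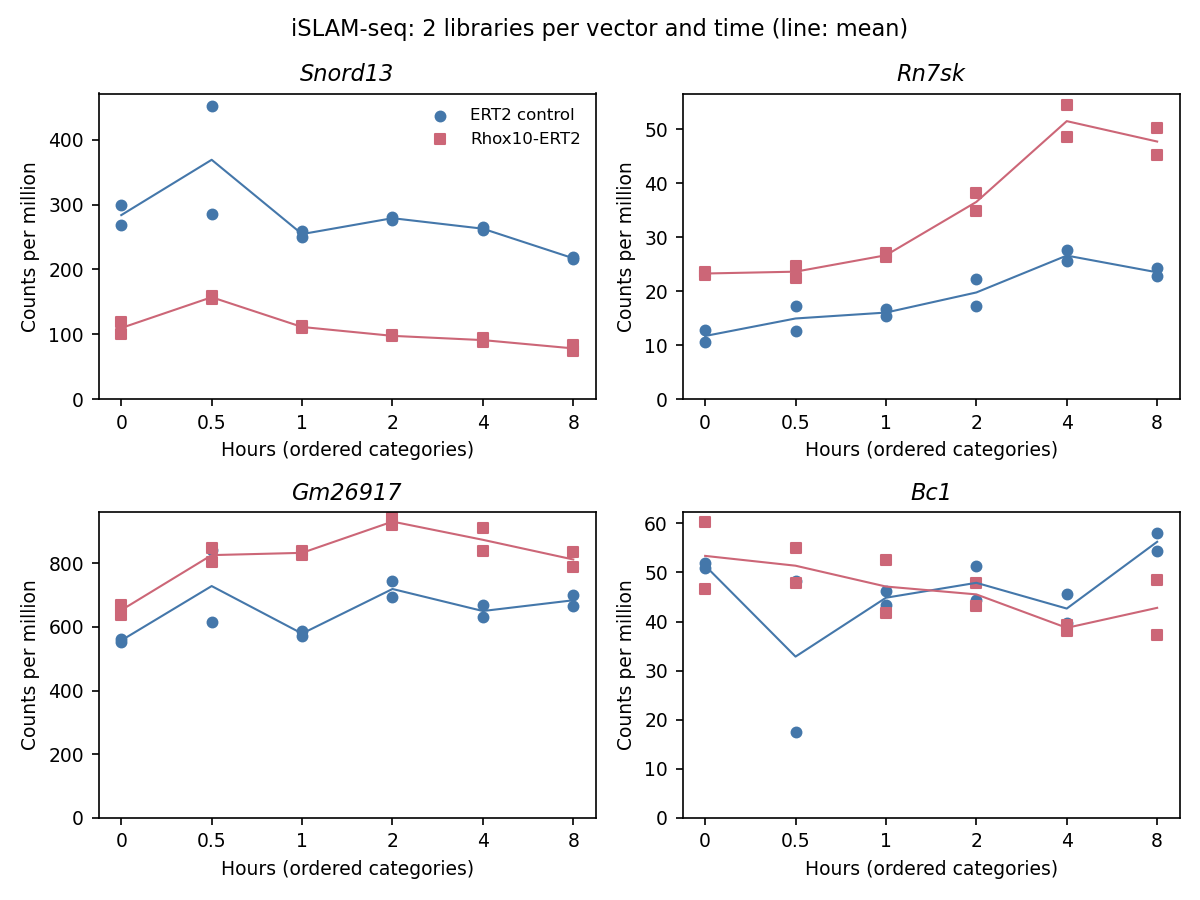
iSLAM-seq shares in CPM of all counts at 6 times (ordered categories on the x axis), with 2 libraries per vector and time as points and their means as lines. Snord13 is lower and Rn7sk higher with the Rhox10 vector at every time, and the second Ctrl library at 0.5 h departs from its partner for Snord13, Gm26917 and Bc1.

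Bc1, which differed most in RNA-seq, had overlapping levels in the 2 vectors. It had 39.6 to 58.1 CPM in 11 Ctrl libraries and 17.5 in the second Ctrl library at 0.5 h, against 37.2 to 60.2 in Rhox10. The averaged log2 difference was 0.02 ± 0.11 (SE), and it was 0.07 ± 0.25 at 0 h. The averaged value, from a contrast used in choosing the genes, was 0.21 without the first Ctrl library at 0.5 h. It was 0.28 with scaling to the germ cell genes. At 4 and 8 h both Rhox10 libraries were below both Ctrl libraries, at 39.4 and 38.1 against 39.6 and 45.6, and at 37.2 and 48.4 against 58.1 and 54.4. With time it did not pass the test in Ctrl (adjusted p 0.320) or Rhox10 (0.731), although with no filter on low counts it passed in Ctrl (2.36e-04). It passed in Rhox10 without the first or the second Ctrl library at 0.5 h (0.0371 and 0.0292), and in Ctrl without the first (3.65e-10), which leaves the departing library as that group's only value.

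The remaining members had few or no counts in this assay, and counts of Rmrp again depend on how shared reads were assigned. Rpph1 had 0 to 9 counts and Terc 0 to 12, with Terc at 0 in 10 of 24 libraries. The longer Rmrp row had 3 counts in 1 Rhox10 library at 0 h and 0 in the other 23, and the shorter row had 0 in all. The averaged difference of Terc was 2.14 ± 1.04 (SE), too wide to read at this depth. Rpph1, Rmrp and Gm42418 were under the filter.

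Across the 20642 genes tested in iSLAM-seq, 37.1% passed in the averaged contrast and 10.9% at 0 h. Of the 5 members above the filter, Snord13, Rn7sk and Gm26917 were past the threshold in the first, and Snord13 and Rn7sk in the second. At 0 h Gm26917 was past it as well without either one of the Ctrl libraries at 0.5 h and with no filter. Both Rhox10 libraries lay above both Ctrl libraries at all 6 times for 6.12% of the genes, among them Rn7sk, and below them for 5.37%, among them Snord13. These counts describe contrasts that were used in choosing the genes.

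Whether the difference between vectors changed after induction was not named in that choice, though it is built from the same differences. For none of the 5 tested members did it pass edgeR's F-test of the change from 0 h, which 2.39% of all genes passed. The adjusted p was 0.693 for Snord13, 0.874 for Rn7sk, 0.422 for Gm26917, 0.529 for Bc1 and 0.884 for Terc, with 0 of the 5 under an unadjusted 0.05 and 0 called by DESeq2 among the 4 it gave a value. That does not show that they did not change, and with no filter on low counts Gm26917 (0.0133) and Bc1 (0.00182) passed. From 0 to 8 h the difference moved by -0.17 for Snord13, -0.04 for Rn7sk and -0.05 for Gm26917 on the log2 scale. Without the second Ctrl library at 0.5 h, the test passed for Snord13 (7.28e-07) and Gm26917 (6.49e-05). Without the first one it passed for Snord13 (0.00863), Gm26917 (1.87e-10) and Bc1 (2.53e-09). In each of these fits the library that is left is taken to vary like the other groups.

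Over the 24 iSLAM-seq libraries, the genes most like Snord13 among 12060 were Top2a (r = 0.979), Rasgrp2 (0.972) and Chd4 (0.969). Those most like Rn7sk were Srxn1 (0.956), Crct1 (0.955) and Tnc (0.949), and Gm26917 was followed by Dstn (0.913). The libraries share their vectors and times, so these are descriptions. The whole class of snoRNA rows took 0.0462% to 0.0895% of the counts in Ctrl and 0.0269% to 0.0456% in Rhox10, Snord13 included. Its means were 0.0580% and 0.0342%, of which Snord13 alone made up 0.0278% and 0.0108%. Snora20, the highest Snora row, had 19.9 CPM on average in Ctrl and 10.6 in Rhox10. Rny3 did not follow, with 6.50 and 6.45. Rny1 (2.93 and 3.72) and Scarna2 (0.646 and 1.70, on 2 to 31 counts) went the other way.

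Genes for the proteins that make or bind these RNAs were read from lists. In RNA-seq with TMM scaling, where 37.5% of all genes passed, 12 of 28 RNA polymerase III genes fell and 2 rose, with a median of -0.20 on the log2 scale against 0.00 over all genes. Polr3d, a subunit of the enzyme, fell by 0.47 (SE 0.12), Ssb, the La protein that binds its transcripts, fell by 0.30 (SE 0.071), and Snapc3 rose by 0.45 (SE 0.11). Of 15 RNA polymerase I genes 4 fell and 0 rose (median -0.24), among them Polr1b (-0.74 ± 0.10) and the promoter factor Ubtf (-0.27 ± 0.063). With library totals none of the 28 polymerase III genes fell and 10 rose, and 1 of the 15 polymerase I genes fell and 4 rose, so the direction of both lists rests on the scaling. DESeq2 called 7 polymerase III genes lower and 1 higher.

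With TMM scaling the lists below stand against the 37.5% of all genes that passed, and their counts are descriptions. The 7SK partners went both ways. Larp7, which is bound to 7SK throughout its life, fell by 0.40 (SE 0.10) and Cdk9, the kinase of P-TEFb, by 0.24 (SE 0.091). Hexim1, its inhibitor, rose by 0.34 (SE 0.098) and Ccnt2, its cyclin, by 0.35 (SE 0.063). In all 3 of 8 rose and 2 fell (median 0.06), and with library totals 5 rose and 0 fell. In RNase P and MRP 2 of 9 tested genes fell, Pop1 (-0.53 ± 0.17) and Pop4 (-0.39 ± 0.16), and with library totals none passed. In telomerase 5 of 10 fell, led by Nhp2 (-0.55 ± 0.14) and Nop10 (-0.64 ± 0.18), and with library totals 3 rose and 0 fell. Of 9 genes of box C/D particles and 18S acetylation 3 fell, among them the methyltransferase Fbl (-0.78 ± 0.094), and with library totals 4 rose and 1 fell. None of the 8 genes for Bc1-binding proteins passed in edgeR (median 0.06) or in DESeq2, with 1 of them, Cyfip1, under an unadjusted 0.05, and with library totals all 8 rose.

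In iSLAM-seq 37.1% of all genes passed in the averaged contrast. With the Rhox10 vector 6 of the 7 lists had a median below 0, and the Bc1-binding list stood at 0.03. At 0 h, before induction, the same 6 lists had medians below 0 as well, from -0.27 for telomerase to -0.05 for the 7SK partners. In the test of the change from 0 h, which 2.39% of all genes passed, 0 genes of each list passed. In the averaged contrast 11 of 28 RNA polymerase III genes fell and 2 rose (median -0.13). Polr3gl fell by 0.65 (SE 0.057) and Ssb by 0.23 (SE 0.022), and Polr3k rose by 0.39 (SE 0.098). For RNA polymerase I 5 of 14 fell and 0 rose, including Polr1c (-0.40 ± 0.049). Of the 7SK partners 5 of 8 fell and 1 rose, with Larp7 at -0.27 ± 0.027, Mepce, which caps 7SK, at -0.35 ± 0.046 and Hexim1 at 0.19 ± 0.062. Of the box C/D genes 4 of 9 fell, led by Nop56 (-0.34 ± 0.037) and Nufip1 (-0.32 ± 0.041). Telomerase had 4 of 10 lower, with Wrap53 at -0.46 ± 0.071 and Dkc1 at -0.31 ± 0.039, and RNase P and MRP had 3 of 11 lower and 1 higher. Of the Bc1-binding list Pura and Purb were higher (0.22 and 0.10) and Fmr1 and Eif4b lower (-0.17 and -0.21). Library totals left all these counts of the averaged contrast as they were. Scaling to the germ cell genes moved the median of all genes by 0.24, and turned the polymerase III list to 9 higher and 1 lower.

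**Figure D4:**
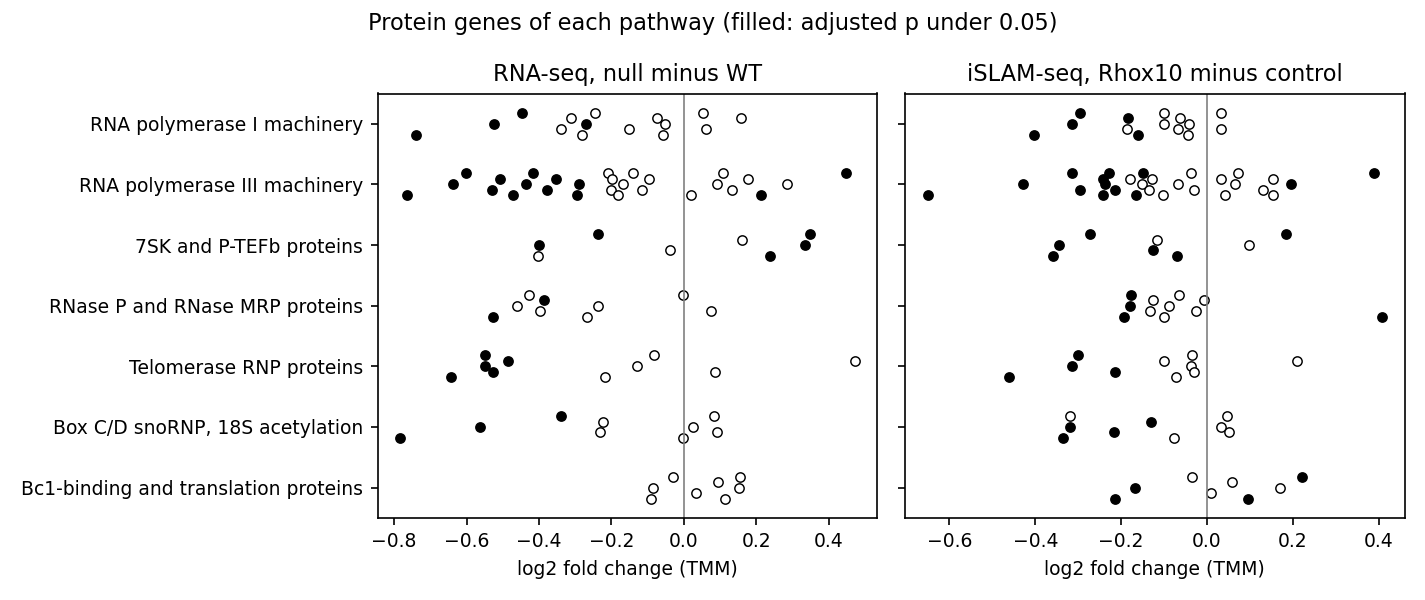
Log2 fold changes with TMM scaling for protein genes of 7 lists, each point a gene, filled where the adjusted p was under 0.05. RNA-seq (left) compares null with WT and iSLAM-seq (right) the Rhox10 with the control vector at 0.5 to 8 h. Medians of both polymerase lists were below 0 at 0 h too, which is not drawn. Most filled points of the polymerase lists lie below 0 on both sides, and the 7SK list is split in RNA-seq.

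The peak table that the authors deposited lists 5147 RHOX10 peaks, and 0 are annotated to any of the 8 genes. By position, 2 of the 8 lie within 10 kb of a peak. A peak at chr7:144914620-144915191, with the authors' score of 201, covers the last 18 bases of Bc1 and is annotated to Oraov1, at -195 from its start. Counted from the middle of the peak, that distance points to chr7:144915100. There LTO1, the neighbour of Bc1 named above, begins in the annotation used here. The score of this peak exceeds that of 69.3% of the peaks. Another, at chr9:78175637-78176261 with a score of 61.3, begins 4 bases upstream of the first base of Rn7sk and is annotated to C920006O11Rik, which is read from the other strand. It exceeds 21.9% of the peaks. Within 10 kb of a peak lie 16.5% of all 55536 gene rows and 8.02% of the 3528 rows typed as small structured RNA, a class that leaves out Bc1 because it is typed as lincRNA. Within 100 bases the shares are 11.1% and 0.652%. The other members are 18570 bases or more from the nearest peak.

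The window from 250 bases before to 50 bases after the start of Rn7sk is printed because most of it lies inside that peak. Capitals mark TATAA and its complement TTATA. The octamer ATGCAAAT, or its complement ATTTGCAT, was searched too and was not in these letters.

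Rn7sk upstream window (chr9:78175584-78175883, minus strand): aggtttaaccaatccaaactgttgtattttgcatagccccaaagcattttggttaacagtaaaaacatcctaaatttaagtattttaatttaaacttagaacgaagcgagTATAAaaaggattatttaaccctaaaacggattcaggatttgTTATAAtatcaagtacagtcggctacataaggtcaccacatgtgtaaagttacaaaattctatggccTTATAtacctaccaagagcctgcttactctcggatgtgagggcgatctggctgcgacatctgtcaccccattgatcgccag

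In this window TATAA was found on the gene's strand at positions -140 and -97, and TTATA at -98 and -31, counting the first base of the gene as 0; the pair at -98 and -97 overlap. Among 32851 RefSeq promoters of the same length, 24.9% held TATAA on either strand and 1.74% held the octamer. The octamer or its complement was found in windows of other members too, among them Rpph1 at -100 and the longer Rmrp row at -218. TATAA or its complement was also found at -131 in Gm26917, -33 in Rpph1 and -163 in the longer Rmrp row. Of the 8 genes, 1 (Bc1) was in the RefSeq promoter table, and the other windows were read from the GRCm38 genome. A match to these letters is a description and does not show that a factor binds.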

How the data were processed

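RNA-seq (8 libraries) and iSLAM-seq (24) were read from tables of raw counts per gene that the authors deposited, per the file headers. The submitters' processing notes name STAR 2.5.2b, Subread, featureCounts, DESeq2 and GRCm38 for RNA-seq, and limma 3.42.2 and mm10, the same assembly, for iSLAM-seq. Whether iSLAM-seq counted all reads or converted reads, and the strand setting, are not given in the sources used here. The deposited peak table gives a score per peak, and the notes name Bowtie2 2.2.5, SAMtools, HOMER and mm10. All 55536 identifiers matched GENCODE M21. Shares are counts over library totals, so depth limits rows with few counts. Differences and time courses were fitted over all genes with edgeR 4.0.16 in R 4.3.3 (TMM, filterByExpr, Benjamini-Hochberg, threshold 0.05), iSLAM-seq with 12 group means, and the code was tested on simulated data. Standard errors are the absolute log2 fold change over the square root of F. Alternatives were DESeq2 1.42.0, other scalings, no filter, removal of Gm42418 and Gm26917, the replicate block and each library left out. A paired reading of replicate numbers was checked and found no shared deviation. The labels call the iSLAM-seq libraries biological replicates and say that each RNA-seq library pooled 3 animals, and p-values measure the spread between these libraries, which may be partly technical. Members and lists were chosen with earlier results of these data known. Named genes were the members, up to 2 calls of smallest p in each direction per list and assay, the 3 genes most like each member, neighbours, and the 2 top rows of each small RNA class. There were 0 further sample columns. A gene and a sequence are not reported here.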

Additional observations from a re-analysis of the deposited data

Results flagged for a closer look

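For 2 members, 1 null RNA-seq library stood apart from the other 3 by its gap to the nearest of them relative to the group's range, which chance alone does in about 1 of 20 groups. Gm26917 took 4.604% of the counts in null replicate 1, its lowest null value, against 4.919% to 4.964% in the other 3. Rn7sk took 0.4975% in null replicate 3, its highest null value, against 0.4466% to 0.4553% in the other 3. Both values still lay above every WT library.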

How the results depend on the processing

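In RNA-seq 5071 genes passed, against 7858 with library totals, 12402 with scaling to 3 germ cell genes (added after seeing the data) and 2980 with DESeq2, and 4468 to 4687 with a library left out. Library totals moved the split from 2518 higher and 2553 lower to 7229 and 629. Germ cell scaling turned Gm42418 to 0.41, Gm26917 and Rn7sk to 0.83, Rpph1 to 0.81 and Terc to 0.49, and library totals turned Gm26917, Rn7sk and Rpph1 to 0.26, 0.25 and 0.24. The change of the iSLAM-seq difference from 0 h passed for 494 genes, for 1002 with no filter, 231 with germ cell scaling and 835 with DESeq2, and for 314 to 4331 with a library left out. The Ctrl time test passed for 1184, for 2450, 5569 and 1915 in the same order, and for 764 to 6099. The Rhox10 time test passed for 1948, and for 1319 to 4559. The difference at 0 h passed for 2246, and for 1076 (without the first Ctrl library at 0 h) to 3819. The highest of these iSLAM-seq counts came without 1 of the 2 Ctrl libraries at 0.5 h, and the cause was not tested. On the log2 scale, germ cell scaling turned the 0 h difference of Terc to 0.062, the Ctrl change of Bc1 to -0.026 and the Rhox10 change of Terc to -0.023. It turned the change of the difference to 0.082 for Gm26917 and 0.088 for Rn7sk, and library totals turned these to 0.020 and 0.032. With a library left out, values ran from -0.089 to 0.21 for the averaged difference of Bc1, -0.13 to 0.24 for that at 0 h, and -4.35 to 1.05 for that of Terc. The change of the difference ran from -0.072 to 0.016 for Gm26917, -0.16 to 0.11 for Rn7sk and -0.077 to 5.33 for Terc, and the time change of Terc from -1.75 to 0.12 in Ctrl and -0.95 to 4.23 in Rhox10. In all, 797 of 854 alternative values of members kept direction and side of the threshold, 4 were weaker, 22 stronger and 31 reversed. Most of these alternatives left out 1 library, often from a group with little part in the comparison. Values far from the threshold, such as those of Terc, rarely crossed it. The count is therefore no measure of how far the differences hold across scalings. Replicate numbers did not pair the libraries (correlations of -0.019 to 0.014 in RNA-seq and -0.015 to 0.035 in iSLAM-seq). With the replicate block 5066 genes passed in RNA-seq, and 7687, 2314, 502, 1206 and 1996 in the averaged, 0 h, change, Ctrl and Rhox10 tests. Depth leaves Terc and Rpph1 in iSLAM-seq and Snord13 in RNA-seq without a usable difference. That of Terc in RNA-seq is imprecise, with an SE of 0.25 on the log2 scale.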
